A study of Mus musculus with 24 samples.

Results

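The mitochondrial enzymes of the tricarboxylic acid (TCA) cycle were followed in hearts of mice with experimental autoimmune myocarditis (EAM). The 9 genes were Cs, Idh2, Idh3a, Idh3b, Ogdh, Sucla2, Suclg1, Fh1 and Mdh2. They were chosen by name, matched to their Ensembl identifiers in the full gene count table, and make up 9 of 41388 genes listed, of which 27304 had a read in any heart. All 9 had enough reads to be tested at every time point. Part of the heart was taken from wild-type male Balb/c mice on day 10, 15 or 21 of the protocol (D10, D15, D21) for RNA sequencing, with 4 EAM and 4 control hearts per day. EAM mice, aged 8 to 10 weeks, received 100 µg of a cardiac myosin heavy chain (MyHC-α) peptide in 200 µl of an emulsion with adjuvant (SCFA) on days 0 and 7, with pertussis toxin (PTX) on day 0. Control mice received the same adjuvant with PBS and PTX, so the controls share both with the EAM mice and lack the peptide. The peptide was dissolved in PBS with DMSO, which is not named for the control emulsion. The EAM hearts that were sequenced had been picked where possible for the presence of inflammation, which limits how far they stand for all immunized mice. At D10, the paper reports, no EAM mouse had raised heart leukocytes by flow cytometry or raised cardiac troponin I.

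The cycle oxidizes the acetyl group of acetyl-CoA to carbon dioxide in the mitochondrial matrix and passes the electrons, as NADH and through succinate dehydrogenase, to the respiratory chain. Heart muscle is rich in mitochondria and draws most of its ATP from this route, fed by fatty acids through beta-oxidation and by pyruvate through the pyruvate dehydrogenase complex. In whole-tissue RNA, fewer cells of a type and less RNA per cell cannot be told apart.

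Transcription of such genes in heart muscle is known to involve the estrogen-related receptors, nuclear respiratory factor NRF1 and GABP. RefSeq windows of 300 bases around the transcript starts (250 before and 50 after, GRCm38.p6) were found for 8 of the 9 genes, all but Idh3a, and Ogdh had several. Both strands were searched for the core letters AAGGTCA of the estrogen-related receptor element, GCGCATGCG of NRF1 and CCGGAAG of GABP, which do not overlap in the windows shown. Of the matching windows, 2 of Ogdh and that of Idh3b follow, with that of Sucla2, the gene with the largest fall at D15, to show the contrast of a start region without a match. The windows of Cs, Idh2, Suclg1, Fh1 and Mdh2 held no match either. Capitals mark the match.
Ogdh, chr11:6291920-6292219, plus strand: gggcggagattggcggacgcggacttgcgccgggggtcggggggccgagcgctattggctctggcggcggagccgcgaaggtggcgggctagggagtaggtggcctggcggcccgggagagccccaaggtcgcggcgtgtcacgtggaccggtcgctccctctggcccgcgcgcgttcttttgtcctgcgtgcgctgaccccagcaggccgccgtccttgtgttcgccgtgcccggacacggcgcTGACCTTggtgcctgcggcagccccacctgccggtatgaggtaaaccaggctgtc
Ogdh, chr11:6292308-6292607, plus strand: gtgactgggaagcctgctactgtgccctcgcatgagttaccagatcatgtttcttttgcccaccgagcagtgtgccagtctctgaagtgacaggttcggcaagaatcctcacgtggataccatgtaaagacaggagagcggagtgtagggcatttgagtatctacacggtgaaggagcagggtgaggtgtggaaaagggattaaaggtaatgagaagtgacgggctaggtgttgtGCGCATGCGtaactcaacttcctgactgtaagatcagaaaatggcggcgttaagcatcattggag
Idh3b, chr2:130284402-130284701, minus strand: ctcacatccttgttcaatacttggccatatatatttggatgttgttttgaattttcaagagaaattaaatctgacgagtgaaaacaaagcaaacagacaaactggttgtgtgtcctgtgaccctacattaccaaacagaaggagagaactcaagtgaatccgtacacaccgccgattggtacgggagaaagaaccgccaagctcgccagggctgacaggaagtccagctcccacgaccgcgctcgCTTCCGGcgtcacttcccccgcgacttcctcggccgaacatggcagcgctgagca
Sucla2, chr14:73552536-73552835, plus strand: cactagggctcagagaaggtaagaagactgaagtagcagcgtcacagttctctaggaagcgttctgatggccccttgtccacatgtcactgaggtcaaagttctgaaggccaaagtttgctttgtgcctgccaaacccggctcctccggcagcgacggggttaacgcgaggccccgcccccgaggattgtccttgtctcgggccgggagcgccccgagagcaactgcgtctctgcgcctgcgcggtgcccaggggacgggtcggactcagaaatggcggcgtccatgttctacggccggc
The capitals in the first Ogdh window are the estrogen-related receptor core read on the other strand, those in the second are the NRF1 core, and those of Idh3b are the GABP core read on the other strand. Of the 13 windows of these 8 genes, 1 held the estrogen-related receptor core, 2 the NRF1 core and 1 the GABP core, beside 4.72%, 1.75% and 8.86% of 32851 windows of the same length. Both windows with the NRF1 core are starts of Ogdh that overlap and hold the same match, and the one not printed is chr11:6292329-6292628. Among 7 other enzymes of the cycle with a window, the GABP core was found for 4 (Dlst, Idh3g, Sdhb and Sdhd), the estrogen-related receptor core for 1 (Sdhd) and the NRF1 core for 0. A match describes letters only, and binding was not measured.

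The libraries held 15814863 to 24980864 counts. Expression is given as CPM, the counts of a gene scaled to a common library size by TMM. The heart label was checked with 12 cardiomyocyte genes, all of which had at least 10 reads in every heart. Their summed level was 41097 to 49939 CPM in the 12 control hearts, 25901 to 44422 CPM in D10 EAM hearts, 12231 to 27363 CPM in D15 EAM hearts and 22434 to 48161 CPM in D21 EAM hearts. The sum of 14 leukocyte markers was 393 to 1124 CPM in controls, 803 to 3200 CPM at D10 EAM, 3342 to 4930 CPM at D15 EAM and 1263 to 4093 CPM at D21 EAM, and each marker had a read in every group. The 4 markers of atrial muscle (Myl7, Myl4, Sln, Nppa) summed to 208.5 to 506 CPM in D10 controls and 576 to 1865 CPM in D10 EAM hearts, to 239.9 to 2329 CPM and 516 to 1620 CPM at D15, and to 1669 to 2572 CPM and 55.6 to 180.4 CPM at D21. Thus the D10 groups, and in the opposite direction the D21 groups, did not overlap in atrial RNA, while the D15 groups did. The 4 D21 EAM libraries also carry another code in their names than the 20 other libraries, so that library set, atrial content and EAM cannot be told apart at D21.

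In control hearts the 9 genes were abundant and steady. Together they took between 0.938% and 1.04% of all counts, and each varied by 0.772% to 9.32% (coefficient of variation) within a control group. Scaled per kilobase of the longest coding transcript, so that genes can be compared, the highest levels over 12 control hearts were those of Mdh2 (757 ± 36.4, SD) and Idh2 (748 ± 86.2), whose difference was smaller than their spread. Mdh2, malate dehydrogenase of the matrix, closes the cycle, and Idh2 is the NADP-dependent isocitrate dehydrogenase of the matrix. Ogdh, the first subunit of the 2-oxoglutarate dehydrogenase complex, followed with 653 ± 48.4 CPM per kilobase, and Cs, citrate synthase, with 579 ± 27.3. The catalytic and regulatory subunits of NAD-dependent isocitrate dehydrogenase, Idh3a and Idh3b, were at 313 ± 17.6 and 418 ± 29.7 CPM per kilobase. Sucla2, the ADP-forming beta subunit of succinyl-CoA synthetase, was at 382 ± 27.3, and Suclg1, the alpha subunit common to both forms of that enzyme, at 295 ± 16.8. Fh1, fumarate hydratase, was lowest with 211 ± 13.1. Cs and Idh3b, and Suclg1 and Fh1, were neighbours in this order whose ranges over the 12 hearts did not overlap, and the ranges of all other neighbours did. Over the union of all annotated exons the order changed, with Idh2 (504.5 CPM per kilobase) and Ogdh (494.2) ahead of Mdh2 (309.3). Between control hearts of different days 0 of the 9 genes passed an FDR of 0.01 in edgeR's quasi-likelihood test, where 0.0919% of genes passed between D10 and D15, 0.0% between D15 and D21 and 0.257% between D10 and D21. Their log2 differences between control days ran from −0.30 for Idh2 between D10 and D21 to 0.00 for Suclg1 between D10 and D15.

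At D15 all 9 genes were lower in EAM hearts. EAM means were between 32.7% and 42.9% of control means, with a median over the 9 genes of 40.1%. Each gene passed both an FDR of 0.01 and a 2-fold change, the limits used here for a call, where 12.9% of all 15693 genes tested were called lower and 31.1% were lower past the FDR alone. EAM and control hearts did not overlap for any of the 9, as for 35.9% of all genes in the same direction. The median log2 fold change was −1.28, beside 0.02 over all genes tested, and each of the 9 lay among the lowest 9.78% of genes. Of all counts, mitochondrially encoded transcripts made up 6.10% to 7.14% in the controls of that day and 3.19% to 4.31% in its EAM hearts.

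Citrate synthase condenses acetyl-CoA with oxaloacetate and is the entry of the cycle. Cs was at 1598, 1689, 1684 and 1765 CPM in D15 control hearts 1 to 4 and at 647, 528, 1003 and 677 CPM in D15 EAM hearts 1 to 4. The highest EAM heart, the third, was far below the lowest control. The log2 fold change was −1.20 ± 0.18 (SE, n = 4 and 4, edgeR adjusted p = 0.00025).

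Isocitrate is oxidized by the NAD-dependent enzyme, a complex of Idh3a, Idh3b and Idh3g products, and by Idh2. Idh3a was at 775, 836, 801 and 878 CPM in D15 controls and 271, 233, 415 and 274 CPM in D15 EAM hearts. The log2 fold change was −1.43 ± 0.17 (edgeR adjusted p = 5.12e-05). Idh3b, the regulatory partner, changed by −1.25 ± 0.20 (edgeR adjusted p = 0.000338), from 648 to 709 CPM in controls to 189.7 to 403 CPM in EAM hearts. Idh2 was at 1188, 1328, 1240 and 1270 CPM in controls and at 526.5, 264.5, 777 and 373 CPM in EAM hearts. This was the widest relative spread among D15 EAM hearts, with a coefficient of variation of 45.8% where the other 8 genes had 26.8% to 37.1%. The log2 fold change of Idh2 was −1.34 ± 0.28 (edgeR adjusted p = 0.00198).

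The next steps release the second carbon dioxide and make GTP or ATP. Ogdh was at 2481, 2615, 2678 and 2892 CPM in D15 controls and at 980.5, 726, 1531 and 1034 CPM in EAM hearts, a log2 fold change of −1.28 ± 0.21 (edgeR adjusted p = 0.000383). Sucla2 fell most among the 9 genes. It was at 841, 863.5, 860.1 and 889.5 CPM in controls and at 280.0, 180.6, 426 and 241 CPM in EAM hearts, a log2 fold change of −1.58 ± 0.23 (edgeR adjusted p = 0.000172), or an EAM mean of 32.7% of the control mean. Its partner Suclg1 was at 442, 463, 452 and 483 CPM in controls and at 159, 127, 252 and 147 CPM in EAM hearts, with a log2 fold change of −1.39 ± 0.19 (edgeR adjusted p = 0.000128).

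Fumarate hydratase and malate dehydrogenase regenerate oxaloacetate. Fh1 was at 542, 568, 547.5 and 563 CPM in D15 controls and at 219.5, 155.5, 331 and 197 CPM in EAM hearts (log2 fold change −1.26 ± 0.20, edgeR adjusted p = 0.000314). Mdh2 was at 1057, 1151, 1115 and 1135 CPM in controls and at 462, 349, 667 and 434 CPM in EAM hearts (log2 fold change −1.18 ± 0.18, edgeR adjusted p = 0.000236). Mdh2 and Cs, on either side of oxaloacetate, had the smallest falls. Differences between the 9 genes were tested only as ratios inside hearts, given further on.

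**Figure D1:**
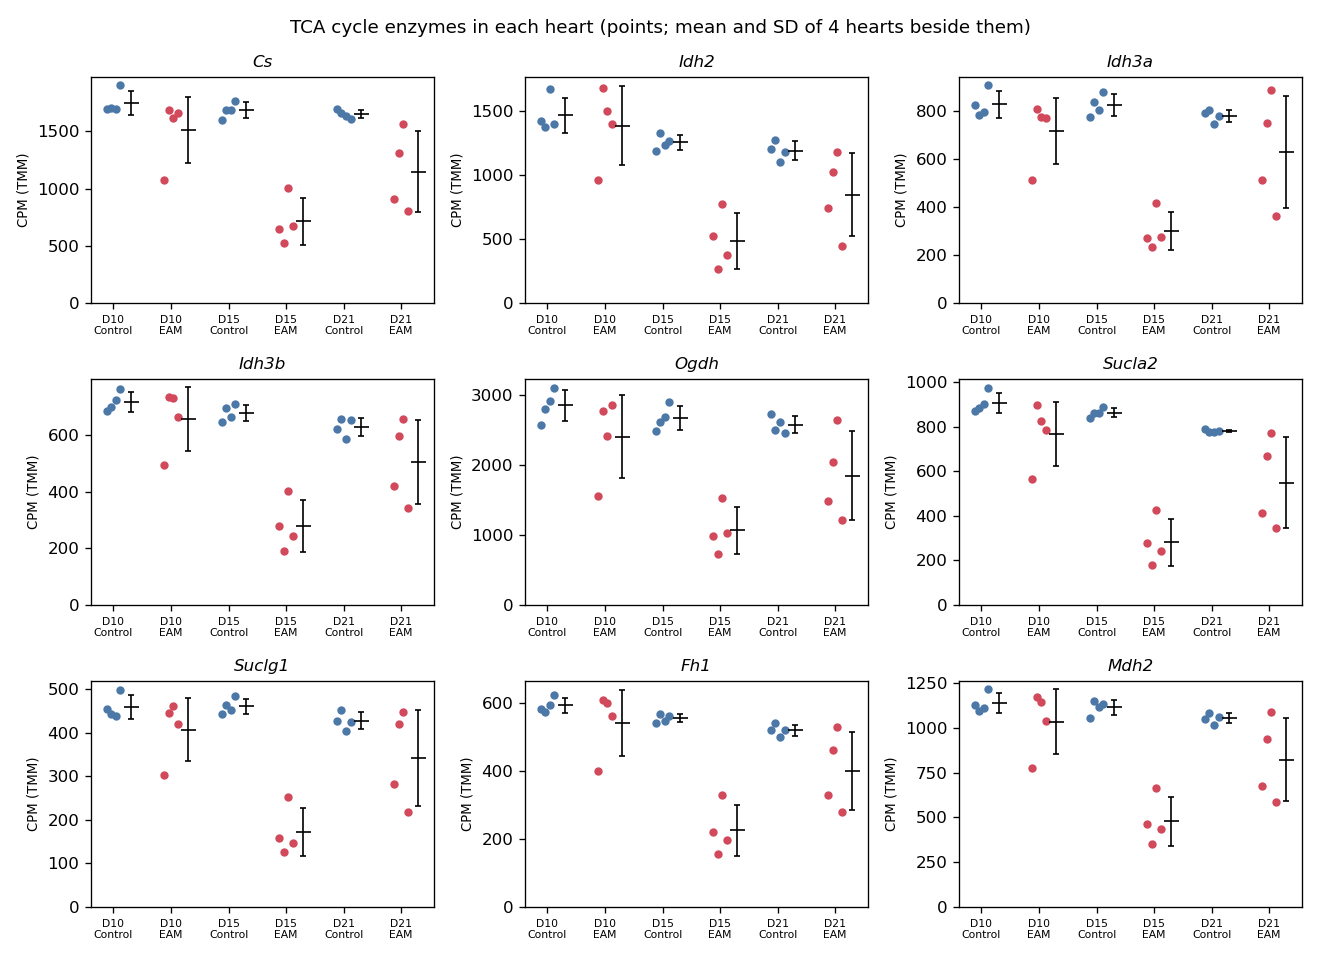
Expression of the 9 TCA cycle enzymes in each heart, in TMM-scaled CPM on an axis from 0, for 3 days and 2 treatments, with 1 point per heart (hearts 1 to 4 from left to right, controls blue, EAM red) and the mean and SD of 4 hearts beside the points. All D15 EAM hearts lie below all D15 controls for every gene, and 1 of the D10 EAM hearts lies apart below the rest.

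The 4 EAM hearts at D15 held the same order at both ends for every gene. Heart 2 was lowest and heart 3 highest for 9 of 9 genes, which all come from the same libraries and so are not separate evidence of that order. The leukocyte marker sums were 4537, 4930, 3342 and 4174 CPM in EAM hearts 1 to 4, so the heart with the least TCA enzyme RNA had the most leukocyte RNA and the heart with the most had the least. Cardiomyocyte marker sums were 16446, 12231, 27363 and 17909 CPM in the same hearts, lowest and highest in the same hearts as the 9 genes. Fibroblast markers were also higher at D15, with a mean score (mean of log2(CPM + 1)) of 9.82 in EAM hearts and 7.85 in controls. Endothelial markers were lower, with scores of 6.72 and 7.38.

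Relative to cardiomyocyte RNA the picture at D15 was different. When libraries were scaled to the 12 cardiomyocyte markers, 0 of the 9 genes passed the FDR and their median log2 fold change was −0.06, while that of all genes tested rose to 1.33, with 1.5% of genes lower past the FDR and 70.5% higher. Sucla2 remained the lowest, at −0.38 ± 0.18 (edgeR adjusted p = 0.0569). Cs was at 0.03 ± 0.16 and Mdh2 at 0.05 ± 0.17, on the other side of 0 from their values under TMM scaling. As a score inside each heart, the mean log2 level of the 9 genes minus that of the cardiomyocyte markers was −1.81 in D15 EAM hearts and −1.68 in D15 controls, a difference of −0.13 ± 0.05 (SE) with 4 of 4 EAM hearts below all controls. As a ratio of summed CPM the difference was −0.08 ± 0.05 with 3 of 4 EAM hearts below all controls. The cardiomyocyte markers themselves had a median log2 fold change of −1.21 under TMM scaling, with 8 of 12 called lower and 11 of 12 past the FDR. In a fit with the atrial marker score as a covariate, added after the data were seen, 9 of 9 genes were still called with a median of −1.27.

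**Figure D2:**
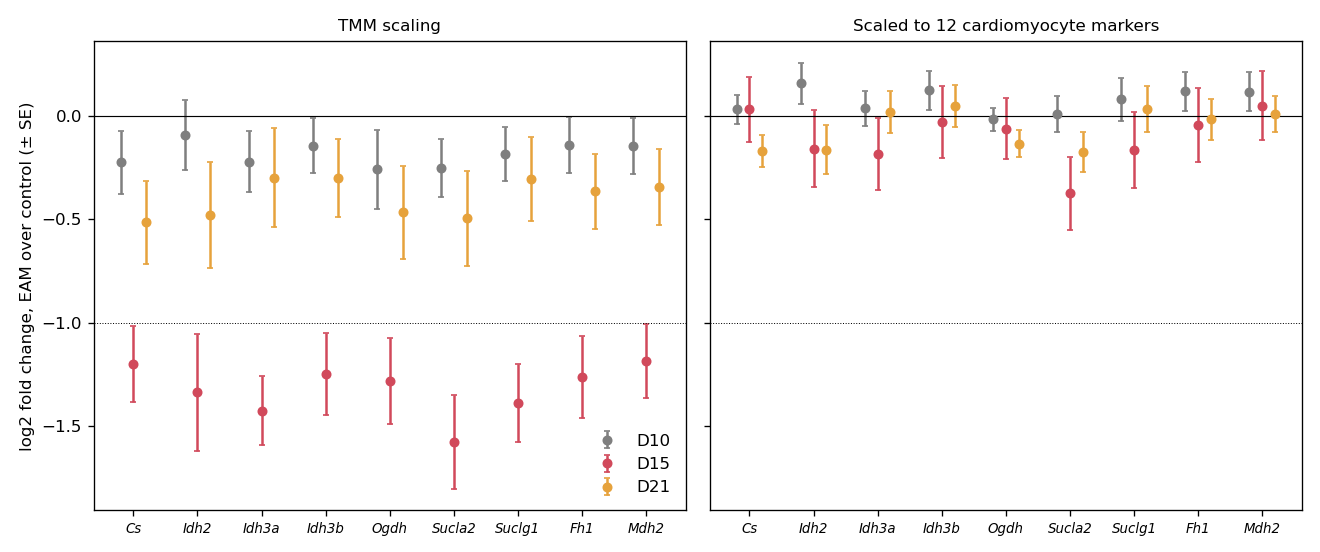
The log2 fold change of EAM over control hearts with its standard error, for each of the 9 genes at 3 days, under TMM scaling (left) and when libraries were scaled to 12 cardiomyocyte markers (right), where the dotted line marks a 2-fold fall. All 9 D15 values lie below the dotted line on the left and between −0.38 and 0.05 on the right.

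At D10, before the D15 fall, 0 of the 9 genes passed the FDR in edgeR's quasi-likelihood test, where 0.0% of genes were called lower. Likewise 0 passed with its likelihood ratio test, DESeq2 or limma-voom, where 2, 13 and 0 of 15029 genes were lower past the FDR. Among the 9 genes 0 had an unadjusted p under 0.05 as well, where 2292 of 15029 genes had one, 833 of them lower. All 9 values were below 0, between −0.26 for Ogdh and −0.09 for Idh2, with adjusted p from 0.376 to 0.767 and a median of −0.19, beside −0.01 over all genes, and 8 of the 9 were above 0 when libraries were scaled to cardiomyocyte markers (median 0.08). EAM heart 1 was lowest for 9 of 9 genes. Cs was at 1694, 1705, 1694 and 1903 CPM in D10 controls and at 1076, 1687, 1614 and 1663 CPM in D10 EAM hearts, so that Cs was the 1 gene of the 9 whose groups did not overlap, as for 3.75% of all genes. The 3 EAM hearts other than heart 1 lay just below the lowest control. Idh2 was at 1422, 1378, 1672 and 1400 CPM in controls and at 961.5, 1683, 1506 and 1404 CPM in EAM hearts, and these overlapped. The part of the higher atrial RNA of D10 EAM hearts in these values was not tested. Heart 1 also held the highest leukocyte sum of its group (3200 CPM) and the lowest cardiomyocyte sum (25901 CPM). Without it the median over the 9 genes was −0.06 and Idh2 was at 0.05.

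At D21, 0 of the 9 genes were called or passed the FDR in edgeR's quasi-likelihood test, where 1.16% of all genes were called lower and 3.1% were lower past the FDR alone. The same held with the likelihood ratio test, DESeq2 and limma-voom, where 1247, 1651 and 271 of 15266 genes were lower past the FDR. All 9 values were again below 0, with a median of −0.37 beside −0.01 over all genes, but the hearts were unlike each other. Cs had the largest difference, −0.51 ± 0.20 (edgeR adjusted p = 0.078), and was the 1 gene of the 9 with an unadjusted p under 0.05, where 3237 of 15266 genes were lower with such a p. It was at 1699, 1657, 1635 and 1610 CPM in controls and at 906, 1312, 1560 and 801.5 CPM in EAM hearts. Sucla2 was at 789.5, 777, 777 and 782.5 CPM in controls and at 412, 667, 773 and 345 CPM in EAM hearts, a difference of −0.50 ± 0.23 (edgeR adjusted p = 0.124). Cs and Sucla2 were the 2 of 9 genes whose groups did not overlap, where 18.7% of all genes had every EAM heart below every control. Idh3a had the smallest difference, −0.30 ± 0.24 (edgeR adjusted p = 0.346), with 512, 748, 885 and 363 CPM in EAM hearts and 744 to 801 CPM in controls.

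EAM heart 4 was lowest and EAM heart 3 highest for 9 of 9 genes at D21. In heart 3 the 9 genes were near or above the controls, while its cardiomyocyte sum was 48161 CPM, above all controls of that day, and its leukocyte sum 1263 CPM was the lowest of the group. In heart 4 the cardiomyocyte sum was 22434 CPM. Without heart 3 the median over the 9 genes was −0.53 and without heart 4 it was −0.23, with 0 of 9 past the FDR either way. Relative to the cardiomyocyte markers the score was −1.83 in EAM hearts and −1.72 in controls, a difference of −0.11 ± 0.03 with 3 of 4 EAM hearts below all controls. Scaled to those markers in the fit, the median was −0.02 beside 0.19 for the markers themselves, 4 of 9 genes were above 0 and 0 of 9 passed the FDR, where 30 of 15266 genes were lower past it and 5 higher, so few genes of any kind passed in this fit. Adipocyte markers summed to 0.110 to 2.94 CPM in these EAM hearts, with Lep at 0 reads in all 4, and to 9.57 to 26.2 CPM in D21 controls. The part of the low atrial and adipocyte RNA and of the other library code in the D21 values was not tested.

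**Figure D3:**
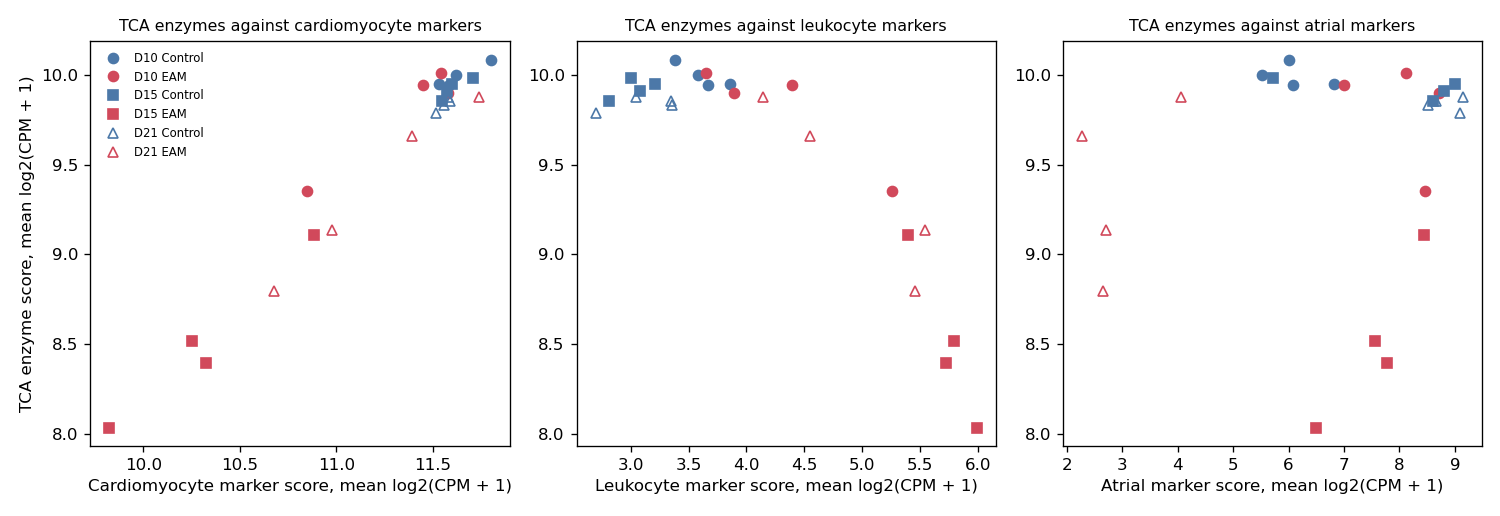
The TCA enzyme score (mean log2(CPM + 1) of the 9 genes) of each of 24 hearts against the scores of cardiomyocyte, leukocyte and atrial markers on the same scale, with controls blue, EAM red, D10 as circles, D15 as squares and D21 as open triangles. EAM hearts with low TCA scores have low cardiomyocyte and high leukocyte scores, and the 4 D21 EAM hearts stand apart at atrial scores of 2.27 to 4.07.

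The difference between days was tested in a fit of all 24 hearts. From D10 to D15 the EAM effect on the 9 genes moved by a median of −1.17, and 8 of 9 passed the FDR, where 16.7% of 16318 genes did so in that direction. Values ran from −1.37 ± 0.32 for Sucla2 (edgeR adjusted p = 0.00297) to −1.03 ± 0.27 for Cs (edgeR adjusted p = 0.00567). Ogdh, with −1.07 ± 0.31, had an adjusted p of 0.0101 in edgeR and just missed the limit, and Idh2, with −1.29 ± 0.38 and an adjusted p of 0.00991, just passed it. Under the cardiomyocyte scaling 0 of the 9 passed, where 114 of 16318 genes were lower past the FDR and 3740 higher. From D15 to D21 the effect moved back up by a median of 0.92, and 2 of 9 genes passed the FDR, where 8.47% of genes did so in that direction. These were Idh3a, with 1.15 ± 0.29 (edgeR adjusted p = 0.00764), and Suclg1, with 1.11 ± 0.28 (edgeR adjusted p = 0.00729). The other 7 ran from 0.71 ± 0.27 for Cs to 1.11 ± 0.32 for Sucla2, with adjusted p from 0.0129 to 0.0834. The count from D15 to D21 depended on single hearts: it was 7 without D15 EAM heart 3, 6 without D21 EAM heart 4, 2 without D21 EAM heart 1 and 0 without any 1 of the other 13 hearts of these days. A replicate block in the fit gave 0, where 150 of 16318 genes were higher past the FDR. Both comparisons use the D15 hearts, so their values are not independent.

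The subunits and isoforms were compared inside each heart as ratios of counts, which are free of library scaling, in 8 pairs at 3 days. With 4 hearts against 4 the two-sided exact permutation test cannot go below p = 0.0286, and over 24 tests 5 reached it, with a Benjamini-Hochberg adjusted p of 0.137, so 0 passed an adjusted 0.05. The largest of these was Idh2 over Idh1, its cytosolic counterpart, at D15. The ratio was 17.2 in controls (16.9 to 17.4) and 5.06 in EAM hearts (2.04 to 10.5), a log2 difference of −1.77 ± 0.49 (exact permutation p = 0.0286, below all controls in 4 of 4 hearts). Idh1 itself was at 68.3, 77.3, 73.4 and 73.0 CPM in D15 controls and at 87.7, 130, 74.2 and 72.5 CPM in EAM hearts, which overlapped (log2 fold change 0.36 ± 0.17, edgeR adjusted p = 0.0846).

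Inside succinyl-CoA synthetase, Sucla2 over Suclg2 (the GTP-forming beta subunit) went from 3.44 (3.32 to 3.57) in D15 controls to 2.79 (2.66 to 2.90) in EAM hearts, a log2 difference of −0.30 ± 0.04 (exact permutation p = 0.0286, 4 of 4 below all controls). Its D21 difference was −0.03 ± 0.06 (exact permutation p = 0.743). Sucla2 over Suclg1 went from 1.88 to 1.62 at D15, −0.21 ± 0.07 (exact permutation p = 0.0286, 4 of 4), and differed by −0.21 ± 0.06 at D21 (exact permutation p = 0.0571). Mdh2 over Mdh1, the cytosolic enzyme, went from 0.617 to 0.658 at D15, 0.09 ± 0.02, where the lowest EAM heart and the highest control were both at 0.631 (exact permutation p = 0.0286). At D21 that ratio differed by −0.14 ± 0.06 (exact permutation p = 0.114). Idh2 over Idh3a was 1.54 in EAM and 1.53 in control hearts at D15 (log2 difference 0.01 ± 0.19) and 1.34 and 1.53 at D21 (−0.19 ± 0.05, exact permutation p = 0.0286). Idh3a over Idh3b differed by −0.16 ± 0.07 at D15 (exact permutation p = 0.114), Idh3b over Idh3g by −0.13 ± 0.04 (exact permutation p = 0.0571) and Ogdh over Dlst by −0.04 ± 0.09 (exact permutation p = 0.771). In the same order the D21 differences were −0.03 ± 0.08, 0.07 ± 0.05 and −0.07 ± 0.05 (exact permutation p = 0.771, 0.2 and 0.2). None of the 8 D10 ratios reached the smallest p. These tests took the hearts as unpaired. With same-numbered D21 hearts taken as 4 pairs, an alternative chosen after the data were seen, an exact sign-flip test cannot go below p = 0.125, and Idh2 over Idh3a, lower in 4 of 4 pairs, was 1 of 5 D21 ratios at that p.

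**Figure D4:**
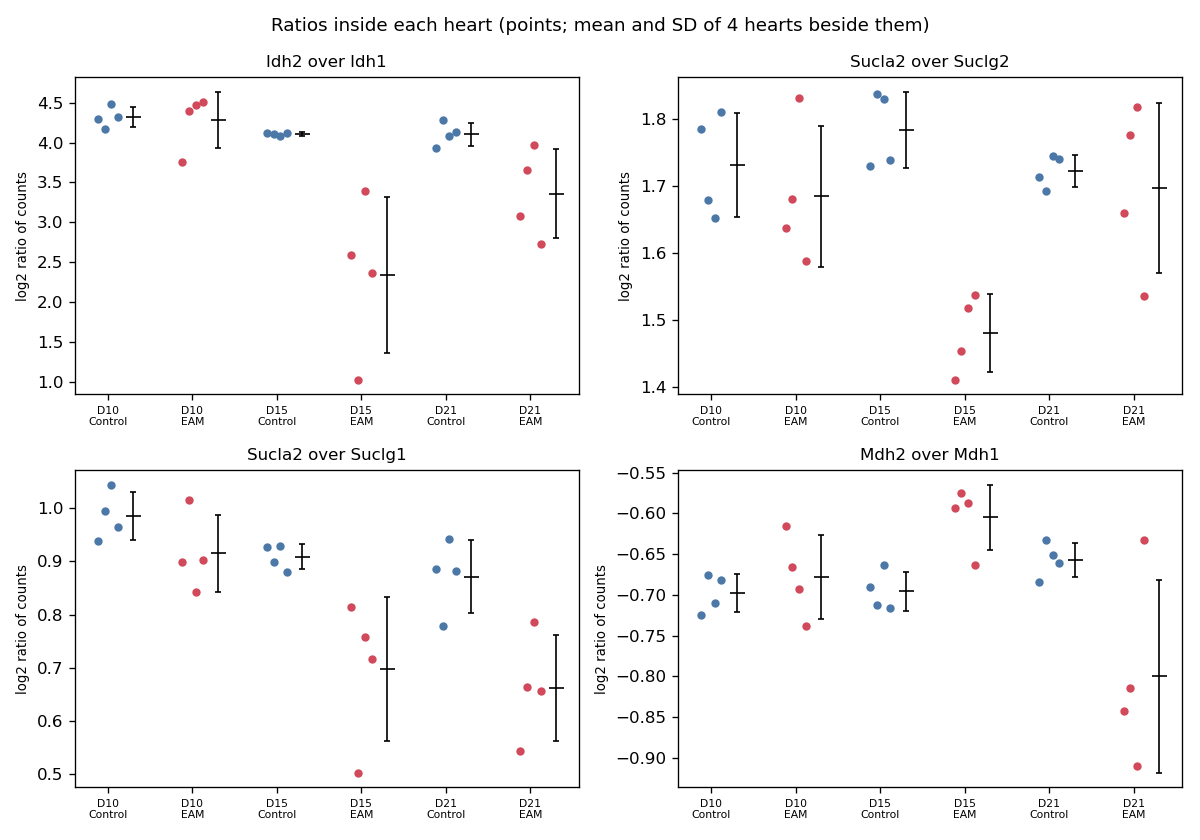
Ratios of the counts of gene pairs in each heart on a log2 scale, with 1 point per heart (controls blue, EAM red) and the mean and SD of 4 hearts beside the points. Idh2 over Idh1 and Sucla2 over Suclg2 are below all controls in all 4 D15 EAM hearts, while the Mdh2 over Mdh1 groups barely part at D15.

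The 9 other enzymes of the cycle were all called lower at D15 (median −1.26 under TMM scaling), where 12.9% of all genes were called lower. When libraries were scaled to cardiomyocyte markers their median was −0.01, beside 1.33 over all genes. Of the 9, 0 passed the FDR under that scaling, where 1.5% of all genes were lower past it and 70.5% higher. Dld, a subunit that the 2-oxoglutarate and pyruvate dehydrogenase complexes share, was at −1.37 ± 0.18 (edgeR adjusted p = 0.000101), Suclg2 at −1.28 ± 0.21, and Dlst, the core of the 2-oxoglutarate complex, at −1.27 ± 0.15. The succinate dehydrogenase subunits Sdha, Sdhb, Sdhc and Sdhd were at −1.28 ± 0.22, −1.26 ± 0.19, −1.18 ± 0.15 and −1.06 ± 0.11. Idh3g was at −1.14 ± 0.17 (edgeR adjusted p = 0.000261). At D10 and D21, 0 of these 9 were called or passed the FDR, with medians of −0.17 and −0.36. Of all genes 0.0% were called lower at D10 and 1.16% at D21, where 3.1% were lower past the FDR alone. The unadjusted p was under 0.05 for 0 of them at D10 and for 2 at D21, beside the 3237 of 15266 genes lower with such a p at D21.

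Pyruvate entry genes were lower too, with 11 of 13 called lower at D15 and 1 called higher (median −1.41), where 12.9% of all genes were called lower and 18.1% higher. Under the cardiomyocyte scaling their median was −0.16, with 0 lower and 1 higher past the FDR, where 1.5% of all genes were lower and 70.5% higher past it. The pyruvate dehydrogenase kinases, which switch the complex off, parted. Pdk4 was at 1421, 497, 807 and 706.5 CPM in D15 controls and at 151, 190.0, 445 and 139 CPM in EAM hearts (log2 fold change −1.86 ± 0.44, edgeR adjusted p = 0.00351), a gene with a wide spread among controls. Pdk2 was at −1.62 ± 0.26 (edgeR adjusted p = 0.000344) and Pdk1, named only to complete the 4 kinases and after its value was seen, at −1.15 ± 0.15 (edgeR adjusted p = 0.000101). Pdk3 rose, from 7.08, 7.50, 6.83 and 4.83 CPM in controls to 29.7, 28.3, 25.1 and 23.6 CPM in EAM hearts (2.06 ± 0.14, edgeR adjusted p = 1.73e-06). Scaled to cardiomyocyte markers, which moved the median of all genes to 1.33, Pdk3 was at 3.39 ± 0.31 (edgeR adjusted p = 3.63e-08), while Pdk4 (−0.71 ± 0.31) and Pdk2 (−0.43 ± 0.18) did not pass the FDR (edgeR adjusted p = 0.0432 and 0.0383), nor did Pdk1 (0.10 ± 0.19, edgeR adjusted p = 0.635). At D10, 0 of the 13 passed the FDR, and Pdk4 was at 0.55 ± 0.27 (edgeR adjusted p = 0.339). At D21 Pdk4 was the 1 gene of the 13 called, where 1.16% of all genes were called lower. It was at 801, 1055, 1064 and 614 CPM in controls and 343, 246, 238 and 417 CPM in EAM hearts (−1.48 ± 0.25, edgeR adjusted p = 0.00696). Under the cardiomyocyte scaling 0 of the 13 passed the FDR at D21, where 30 of 15266 genes were lower past it and 5 higher.

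Cytosolic counterparts and side reactions of the cycle went both ways at D15, with 6 called lower, 3 called higher and 5 not called of 14 (median −0.18), where 12.9% of all genes were called lower and 18.1% higher. Under the cardiomyocyte scaling the median turned to 1.12, with 0 lower and 8 higher past the FDR, where the median of all genes was 1.33 and 70.5% of them were higher past the FDR. The list's share and median were thus not above those of all genes. Under TMM scaling Mdh1, the cytosolic malate dehydrogenase, was at −1.28 ± 0.18 (edgeR adjusted p = 0.000171) and Gpt2, a mitochondrial alanine aminotransferase, at −1.28 ± 0.19 (edgeR adjusted p = 0.000204). Acly, which splits citrate in the cytosol for lipid synthesis, rose from 61.1 to 69.4 CPM in controls to 153 to 162 CPM in EAM hearts (1.32 ± 0.06, edgeR adjusted p = 1.37e-07). Acod1, which diverts aconitate to itaconate and is known from activated macrophages, had 5, 2, 4 and 4 reads in D15 controls and 4168, 4325, 4403 and 4522 reads in D15 EAM hearts (9.69 ± 0.15, edgeR adjusted p = 2.18e-09). At D10 it had 9 to 24 reads in controls and 3356, 26, 371 and 54 reads in EAM hearts (5.52 ± 1.48, edgeR adjusted p = 0.328). At D21 it was called higher again, with 3, 9, 5 and 11 reads in controls and 401, 319, 37 and 1594 reads in EAM hearts (6.58 ± 1.16, edgeR adjusted p = 0.00731). It was the 1 gene of this list called at D21, where 4.13% of all genes were called higher. Under the cardiomyocyte scaling 0 of the 14 passed the FDR at D21, where 30 of 15266 genes were lower past it and 5 higher.

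Other energy genes were lower at D15 too. Of 20 nuclear genes of the respiratory chain 17 were called lower and 20 were past the FDR (median −1.20), and of 13 beta-oxidation genes 13 were called lower (median −1.52), where 12.9% of all genes were called lower and 31.1% were lower past the FDR. Of 11 regulators of mitochondrial genes 8 were called lower, 10 passed the FDR downward and 1 upward (median −1.45), where 33.2% of all genes passed it upward. The lowest of these were Ppara, the nuclear receptor of fatty acid oxidation, at −2.06 ± 0.26 and Perm1, a muscle regulator of energy genes, at −1.99 ± 0.27 (edgeR adjusted p = 7.34e-05 and 0.000122). Both stayed lower past the FDR when scaled to cardiomyocyte markers, at −0.87 ± 0.21 and −0.81 ± 0.19 (edgeR adjusted p = 0.00104 and 0.000774). The 1 regulator that rose was Nrf1, the factor of the NRF1 core above, at 0.43 ± 0.06 (edgeR adjusted p = 0.000133), named after its value was seen. Under that scaling the medians were 0.03 for the respiratory chain, with 0 past the FDR, −0.33 for beta-oxidation, with 2 lower, and −0.25 for the regulators, with 2 lower and 2 higher, where 1.5% of all genes were lower past the FDR and 70.5% higher.

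**Figure D5:**
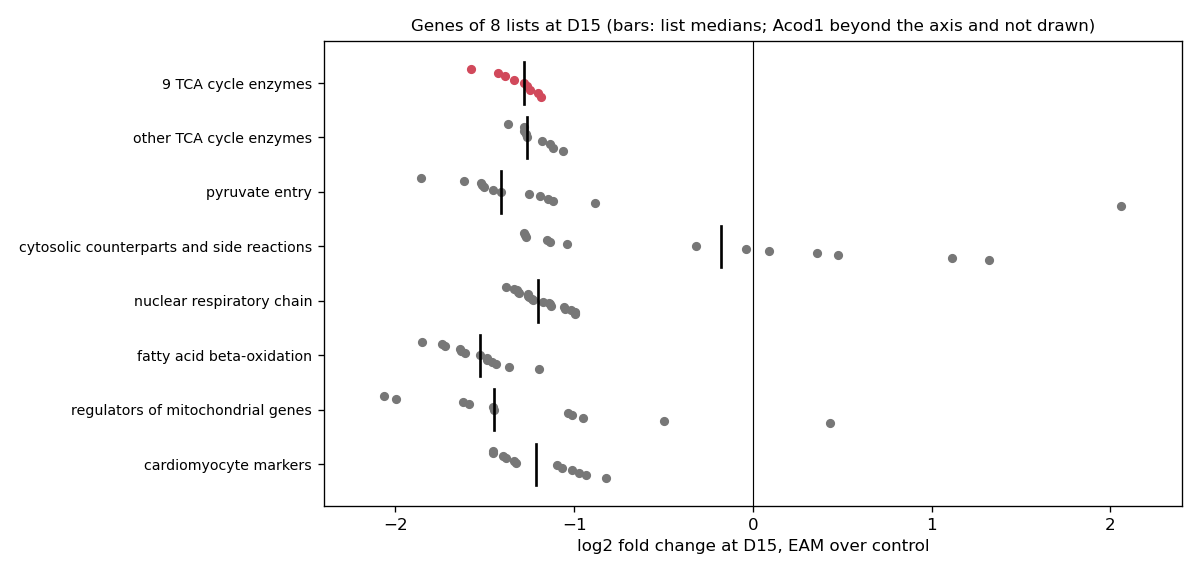
The log2 fold change of EAM over control hearts at D15 for the genes of 8 lists, with 1 point per gene, a bar at each list's median and the 9 TCA cycle enzymes in red. Cytosolic counterparts spread on both sides of 0 around a median of −0.18, and the 7 other lists have medians between −1.52 and −1.20. Acod1, at 9.69, lies beyond the axis.

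Over the 24 hearts, each of the 9 genes followed the mean log2 level of the other 8, with Pearson's r from 0.971 for Idh2 to 0.998 for Mdh2. In the 12 control hearts alone r ran from 0.663 for Idh2 to 0.952 for Fh1. These are descriptions over hearts that fall into separate groups and share libraries and cell makeup. Among 14273 genes whose mean reached 1 CPM, the 10 most like the mean of the 9 were Phyh (r = 0.998), Immt, Hibadh, Pdha1, Foxred1, Ndufs1, Atp5a1, Uqcrfs1, Adk and Coq10a (r = 0.997). A high r was common, since 1239 genes reached 0.95, and 4 of the 10 were among the top 10 by Spearman's rho and 4 in the control hearts alone.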

How the data were processed

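A portion of each of 24 hearts gave RNA that was sequenced as 75 bp read pairs from libraries made with a directional kit. The authors aligned the pairs to GRCm38 with HISAT2 2.0.4, removed duplicates with Picard and deposited the raw featureCounts output, whole-number counts for each Ensembl gene. Removing duplicates can cap the counts of very abundant transcripts. Whether counting used strand was not given in the sources read, and Fh1, Idh3b and Sucla2 each overlap a gene on the other strand. Sample files and the table of all samples differed in 0 cells. Symbols and positions came from GENCODE M21 (GRCm38). The 92 spike-in features had 0 reads and were left out.

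Genes were kept where 4 or more of the 8 hearts of a day (of 24 for tests between days) had 10 or more reads, scaled by TMM and tested with edgeR 4.0.16 (quasi-likelihood) in R 4.3.3, with Benjamini-Hochberg adjustment over all of them. A call needed an FDR under 0.01 and a 2-fold change. Fold changes are EAM over control. Depth was 15814863 to 24980864 counts per library, and the 9 genes had at least 3636 reads in every heart, and in the control groups with the least spread the counting error can be about as large as that spread. The labels number the hearts of a group but do not name the animals, and p-values measure the spread between these samples. Ratios were tested with scipy 1.17.1. Scores used log2(CPM + 1). The scripts were tested on simulated data. The text names the 9 genes, other TCA enzymes (some items are not reported here), the partners of the ratios, the 3 genes of each of 2 side lists with the largest change at D15, the 10 genes most like the 9, the most changed genes of other lists, and Pdk1 and Nrf1, named after their values were seen. The members and lists were chosen with earlier results of these data known. Alternatives were other tests (DESeq2 1.42.0, limma 3.58.1), limits, scalings, filters, a replicate block, and each heart left out in turn.

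What a replicate number stands for is not in the labels. Same-numbered EAM and control hearts deviated together, with a correlation above 0.1, in 4 of 4 pairs at D21 (0.101 to 0.307). At D10 2 of 4 pairs did so (0.365 and 0.407), and at D15 0 of 4. The numbers were taken as possible pairs only at D21, from these correlations alone, though both D10 values were above those of D21. The D21 EAM libraries also carry another code than the D21 controls. The D21 values given come from fits and tests without pairs. The replicate block changed no call there, and ratios were also tested by exact sign flips.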

Additional observations from a re-analysis of the deposited data

Results flagged for a closer look

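In groups of 4 hearts, the gap between an end value and its neighbour was compared with Dixon's limit for the 9 genes in 6 groups. Of 54 groups, 4 passed it, where chance passes about 1 in 20. Cs stood apart at 1903 CPM in D10 control heart 4 and at 1076 CPM in D10 EAM heart 1, Idh2 at 1672 CPM in D10 control heart 3, and Idh3a at 510.5 CPM in D10 EAM heart 1. All 4 were at D10, and D10 EAM heart 1 was the heart with the highest leukocyte marker sum of its group.

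The EAM effect differed between days by the test of the difference itself. From D10 to D15 it moved by −1.03 (log2) for Cs, −1.29 for Idh2, −1.25 for Idh3a, −1.16 for Idh3b, −1.37 for Sucla2, −1.25 for Suclg1, −1.17 for Fh1 and −1.09 for Mdh2, past an FDR of 0.01 in edgeR. From D15 to D21 it moved by 1.15 for Idh3a and 1.11 for Suclg1.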

How the results depend on the processing

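At D15 all 9 genes were called under every alternative but the scaling to cardiomyocyte markers, including each heart left out in turn (9 to 9, median log2 fold change −1.47 to −1.10). Under that scaling 0 were called, 0 passed the FDR and the median was −0.064. Cs (0.0304) and Mdh2 (0.0481) changed direction. At D10 the same scaling turned the median to 0.079, with Cs at 0.031, Idh2 at 0.16, Idh3a at 0.035, Idh3b at 0.12, Sucla2 at 0.0083, Suclg1 at 0.079, Fh1 at 0.12 and Mdh2 at 0.12, and Idh2 was at 0.051 without D10 EAM replicate 1. At D21 it moved the median to −0.018, with Idh3a at 0.018, Idh3b at 0.045, Suclg1 at 0.032 and Mdh2 at 0.0059. This scaling sets libraries by the cardiomyocyte markers, whose own median it left at −0.010 for D15 hearts, 0.043 for D10 and 0.19 for D21, and it put the median of all genes at 0.29 at D10, 1.33 at D15 and 0.42 at D21. Scaling to total counts moved it to 0.17 at D15, with the median of the 9 genes at −1.14.

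The change from D10 to D15 was past the FDR for 6 to 9 genes with each heart left out, and for 0 with a median of −0.16 under the cardiomyocyte scaling. Over all genes that last fit had a median of 1.03, with 114 lower past the FDR and 3740 higher. The change from D15 to D21 was past the FDR for 2 genes. It was 6 with the likelihood ratio test, 6 with DESeq2, 1 with limma-voom, 0 under the cardiomyocyte scaling (median 0.028, with Cs at −0.20, Idh2 at −0.0048, Ogdh at −0.073 and Mdh2 at −0.042), and 0 to 7 with each heart left out. With the replicate block it was 0. Of 16318 genes, those higher past the FDR numbered 1382 in the main fit, 1753 with the likelihood ratio test, 2091 with DESeq2 and 1221 with limma-voom. They numbered 150 with the block and 12 under the cardiomyocyte scaling, where the median of all genes was −0.90. The block changed no call of the 9 genes at D10 (0), D15 (9) or D21 (0). The medians with each heart left out were −0.23 to −0.06 at D10 and −0.53 to −0.23 at D21. The cause of these changes was not tested.

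With 4 hearts a group, p in a permutation test of a single ratio cannot fall below 0.0286. The portion of heart and the library code at D21 cannot be told apart from EAM.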
